A study of Homo sapiens with 6 samples.

Results

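A list of 45 target genes of the transcription factor p53 was followed in U-2 OS cells, a human osteosarcoma line with wild-type p53, with and without ionizing radiation (IR). The genes were taken by symbol from a list of known targets that holds neither the best-known ones (CDKN1A, BBC3, DDB2 and others) nor the regulators of p53, which are described after them. All 45 symbols were found among the 21447 genes with matched transcripts. Bulk RNA-seq was available for 3 libraries of untreated cells and 3 libraries of cells harvested 24 h after 4 Gy of IR, and both groups were the unmodified line grown in the same medium. Estimated counts ranged from 18573309 to 22953834 per library except in IR replicate 3, which held 45308792. The study describes its replicates as distinct, independent samples, while the labels do not say whether they came from separate cultures, and P values measure the spread between these libraries, which may then be technical.

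p53 is kept low in unstressed cells by MDM2, a ubiquitin ligase that is itself a p53 target. DNA breaks activate the kinases ATM and CHEK2, p53 is then stabilized, and it binds DNA as a tetramer at sites built from a pair of decamers. Its targets arrest the cell cycle, repair DNA or promote cell death, and many others act in autophagy, metabolism, translation and signalling between cells, which are the roles of most genes described here.

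Of the 45 genes, 43 passed the filter on low counts. At 24 h after IR, 30 of the 43 were called higher, none was called lower and 13 were not called (edgeR quasi-likelihood test over all 14323 genes tested, adjusted P under 0.05). At an unadjusted P under 0.05, 34 genes were higher and 1 was lower, for which the share over all genes is not given here. The Wald test of DESeq2 called 30 higher and 0 lower, and among all 14323 genes 2141 higher and 2095 lower. Among all genes tested, 15.5% were called higher and 14.5% lower. The median log2 fold change of the 43 genes was 0.65, against 0.01 over all genes tested, and 41 of them had a value above 0. Changes were moderate in size. The called genes ranged from 0.31 to 1.50 with a median of 0.71, and 5 of the 43 exceeded 1. Because the RNA of many cells was pooled, a larger share of responding cells and more RNA per cell cannot be told apart.

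**Figure D1:**
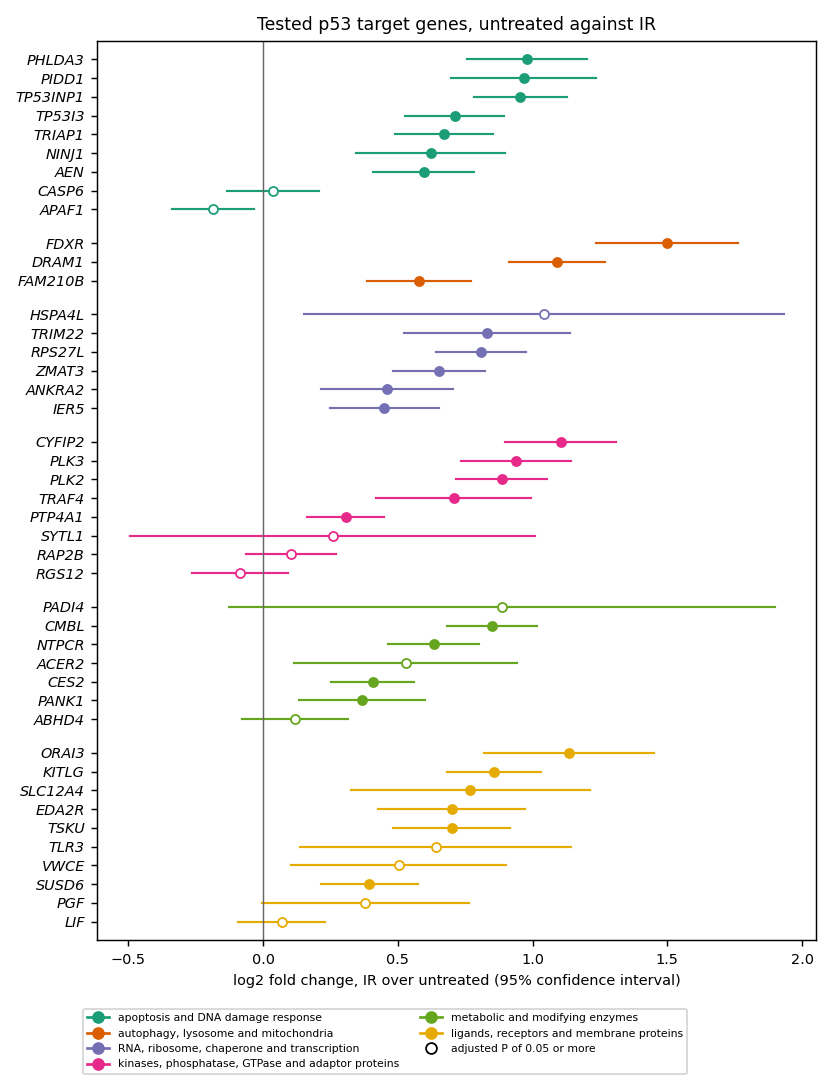
Log2 fold change (IR over untreated) of the 43 tested p53 target genes, grouped by role, as points with 95% confidence intervals from the edgeR fit of 3 against 3 libraries (open points, adjusted P of 0.05 or more). The 30 called genes lie between 0.31 and 1.50, FDXR is the highest, and no gene was called lower.

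The shift was seen in each irradiated library. Relative to the untreated mean, the median log2 difference of the 43 genes was 0.54, 0.67 and 0.74 in IR replicates 1, 2 and 3, with 39, 40 and 42 genes above 0. Each untreated library, set against the other untreated libraries, had a median of -0.01, 0.04 and -0.05. The medians over all genes tested stayed within 0.02 of 0 in every library. In 35 of the 43 genes every IR library was above every untreated library, and in 1 gene, APAF1, every IR library was below. The same held for 23.8% and 23.3% of all genes tested.

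**Figure D2:**
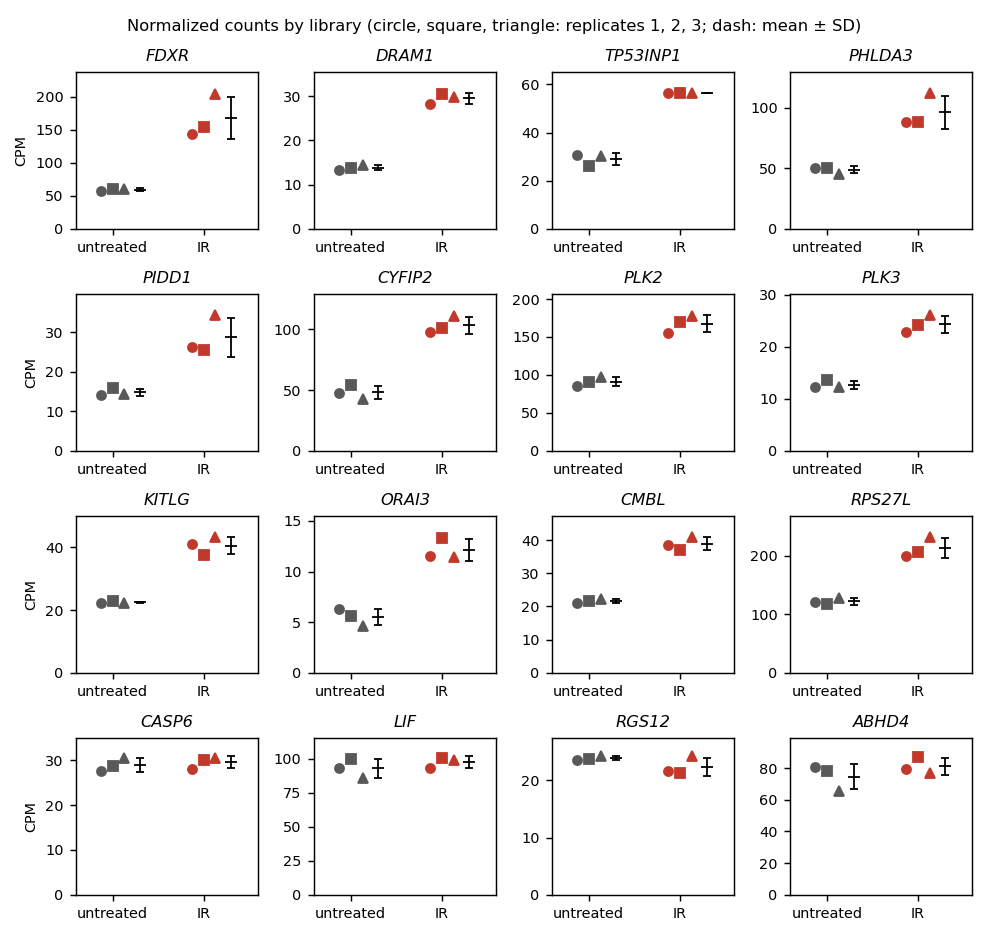
Normalized level (CPM, linear axes from 0) of 16 target genes in each library, with untreated libraries in grey and IR libraries in red, circles, squares and triangles for replicates 1, 2 and 3, and the mean ± SD beside each group. In the panels from FDXR to RPS27L, no IR library overlaps the untreated ones, whereas CASP6, LIF, RGS12 and ABHD4 in the lowest row overlap.

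Summed over the 45 genes, normalized levels (CPM, counts over the TMM-scaled library size) were 1601 to 1651 in the untreated and 2364 to 2670 in the IR libraries. The means rose from 1620 to 2503 CPM, a gain of 883 CPM. More than 10% of it came from each of FDXR, with 12.2%, and RPS27L, with 10.3%. PLK2 held 8.70%, CYFIP2 6.25%, TP53I3 5.38%, PHLDA3 5.36% and AEN 5.04%, so that 7 genes made up 53.3% of the gain. Of all genes tested, the 100 of lowest P held 10 of these genes, and the 100 of highest log2 fold change held 1. There were 16 among the 200 of lowest P and 16 among the 500 of highest log2 fold change. Single genes could rank either way, as SLC12A4 was at 466 by log2 fold change and at 2601 by P.

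Some promoters of these genes carry p53-like sequence close to the start site. The RefSeq promoter table (GRCh38.p14) covers 250 bases before to 50 bases after each start and held 40 of the 45 genes; it has no entry for TP53INP1, PHLDA3, CMBL, LIF and TRIM22. The pattern searched was a pair of p53 core quartets (each a C, then A or T at both middle places, then G) with 6 bases between them, which reads the same on both strands. It was present for 11 of the 40 genes, or 27.5%, and for 5.85% of all 27305 genes in the table. In the 250 bases before the start alone it was present for 6 of the 40 genes, or 15%, and for 4.92% of all genes. By single promoter the shares were 18.0% of 61 and 4.79% of 35116. A stricter pattern, the p53 consensus as a pair of decamers with no spacer and at most 2 mismatches in 20 bases, overlaps the first and was present for AEN, HSPA4L and PANK1, or 7.5%, against 0.820% of all genes.

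All sites of either pattern with at most 4 mismatches to the consensus are shown, since these genes are described below. Each is written 5′ to 3′ on the strand of its gene, with the 20 bases of the site in capitals, and positions count the start base as 1 and the base before it as -1.
AEN, chr15:88621286-88621339, plus strand, site at -34 to -15: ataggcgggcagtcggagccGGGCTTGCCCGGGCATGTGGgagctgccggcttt
PANK1, chr10:89645243-89645295, minus strand, site at -33 to -14: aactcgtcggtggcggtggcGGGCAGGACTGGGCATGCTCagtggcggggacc
RPS27L, chr15:63157507-63157566, minus strand, site at -69 to -50: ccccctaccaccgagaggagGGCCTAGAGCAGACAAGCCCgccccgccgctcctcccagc
HSPA4L, chr4:127783509-127783528, plus strand, site at -14 to 6: AAACATGTTTCCACATGTTC
TRIAP1, chr12:120446337-120446356, minus strand, site at 29 to 48: AGGCATGCACGGACATGAAG
PTP4A1, chr6:63521747-63521766, plus strand, site at 2 to 21: GGACTTGAGTTGCCTTGTCT
RGS12, chr4:3385681-3385700, plus strand, site at 7 to 26: TGACTTGTCTGTTCTTGTCC
PANK1, HSPA4L, PTP4A1 and RGS12 have more than 1 promoter in the RefSeq table, and the printed site lies at only 1 of them. AEN, PANK1 and HSPA4L differ from the consensus at 2 of 20 bases, RPS27L and RGS12 at 3, and TRIAP1 and PTP4A1 at 4. Of these genes AEN, PANK1, RPS27L, TRIAP1 and PTP4A1 were called higher, whereas HSPA4L and RGS12 were not called. Over all promoters searched, 8 of the 11 tested genes with the core pair and 18 of the 27 without it were called higher. A match is a description of sequence in this window, and p53 sites that lie further from the start, as in introns, were not searched.

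Of 9 genes of apoptosis and the DNA damage response, 7 were called higher, with log2 fold changes from 0.60 to 0.98, and APAF1 and CASP6 were not called. TP53INP1, a stress protein that acts in autophagy and cell death (chromosome 8, 94925972 to 94949378, GRCh38), measured 30.8, 26.3 and 30.2 CPM without IR, whereas the irradiated libraries measured 56.3, 56.3 and 56.5 CPM. The groups did not overlap and the IR libraries lay almost on 1 level, at 56.4 ± 0.0958 CPM (SD, n = 3). These levels rest on 1163, 1034 and 2550 counts, so that counting error alone is larger than this SD. Its log2 fold change was 0.95 ± 0.08 (SE, adjusted P = 1.58e-04).

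PHLDA3, which competes with the kinase AKT for membrane lipids, was at 50.7, 50.6 and 45.6 CPM in untreated cells and at 88.2, 88.7 and 112 CPM after IR. IR replicate 3 was the highest, and the groups did not overlap. The log2 fold change was 0.98 ± 0.10 (SE, adjusted P = 3.02e-04). PIDD1 is the scaffold of a complex that activates caspase-2. Its levels were 14.1, 15.8 and 14.5 CPM before and 26.4, 25.5 and 34.3 CPM after IR, again with IR replicate 3 above the others and no overlap. Its log2 fold change was 0.97 ± 0.12 (SE, adjusted P = 7.38e-04). The other called genes of this group were TP53I3, a quinone oxidoreductase, at 0.71, TRIAP1, a small inhibitor of apoptosis, at 0.67, NINJ1, which ruptures the plasma membrane of dying cells, at 0.62, and AEN, a nuclease, at 0.60.

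The genes of this group that were not called were APAF1 and CASP6. APAF1, which assembles the apoptosome after release of cytochrome c, was at 34.0, 34.9 and 35.2 CPM in untreated and at 31.1, 30.9 and 29.7 CPM in IR libraries. All IR libraries were lower, but the difference of -0.19 (95% interval -0.34 to -0.03) missed the threshold (edgeR adjusted P = 0.0652). CASP6, an executioner caspase, was at 27.6, 28.7 and 30.5 CPM and at 28.1, 30.2 and 30.6 CPM, with the groups overlapping. Its log2 fold change was 0.04 (95% interval -0.14 to 0.21, edgeR adjusted P = 0.758; exact two-sided permutation P = 0.6).

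Of 5 genes of autophagy, lysosomes and mitochondria, 3 were tested and all 3 were called higher, at a median of 1.09 on the log2 scale. FDXR (chromosome 17, 74862497 to 74873031) encodes ferredoxin reductase, which passes electrons to the ferredoxins of mitochondria for steroid and iron-sulfur cluster synthesis. It was at 57.4, 59.7 and 61.0 CPM in untreated cells and at 144, 154 and 204 CPM after IR. Every IR library was far above the untreated ones, and IR replicate 3 stood apart at the top. The means were 59.3 ± 1.82 and 167 ± 32.0 CPM (SD, n = 3 each), a 2.82-fold difference, and the log2 fold change was 1.50 ± 0.12 (SE, adjusted P = 1.55e-04). Without IR replicate 3 it was 1.32.

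DRAM1 (chromosome 12, 101877580 to 102012130) encodes a lysosomal membrane protein that promotes autophagy. It was at 13.3, 13.7 and 14.5 CPM in untreated and at 28.2, 30.4 and 29.8 CPM in IR libraries. Both groups were narrow and far apart, and the log2 fold change of 1.09 ± 0.08 (SE, adjusted P = 1.13e-04) ranked 8 of all genes tested by P value. FAM210B, a protein of the mitochondrial outer membrane, had a log2 fold change of 0.58. SPATA18, which acts in mitochondrial quality control, failed the filter with 0 to 2 counts per library. LAPTM5, a lysosomal protein best known from blood cells, failed it as well with 1 to 14 counts per library, or 0.0489 to 0.762 CPM. No change can be read from either at this depth. Of 7 blood lineage markers 1 passed the same filter, CD3E and HBB were at 0 in all libraries, and their summed level was 1.42 to 2.27 CPM in untreated and 1.04 to 1.55 CPM in IR libraries.

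Among 6 genes of RNA binding, ribosomes, chaperones and transcription, 5 were called higher, with log2 fold changes from 0.45 to 0.83. RPS27L, a ribosomal protein that differs from RPS27 at few residues, was at 120, 117 and 128 CPM in untreated and at 199.9, 207 and 232 CPM in IR libraries. The groups did not overlap, and the log2 fold change was 0.81 ± 0.08 (SE, adjusted P = 2.42e-04). Reads shared with RPS27 may have been split between the genes, so that the level of RPS27L is uncertain. TRIM22, an interferon-inducible ubiquitin ligase, rose by 0.83, ZMAT3, an RNA-binding protein that regulates splicing, by 0.65, ANKRA2, an ankyrin repeat protein, by 0.46, and IER5, an immediate-early gene, by 0.45. HSPA4L, a chaperone of the HSP110 family, had only 5 to 8 counts per untreated and 13 to 23 per IR library. Its log2 fold change of 1.04 had a wide error (SE 0.40) and was not called (edgeR adjusted P = 0.0742), although the IR libraries were all higher.

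Of 8 kinases, phosphatases, GTPases and adaptors, 5 were called higher. CYFIP2 (chromosome 5, 157266079 to 157395595), a subunit of the WAVE complex that regulates actin, was at 47.7, 53.9 and 42.6 CPM in untreated and at 97.4, 101 and 111 CPM in IR libraries. No IR library came near the untreated range, and the log2 fold change was 1.10 ± 0.09 (SE, adjusted P = 1.64e-04). The polo-like kinases PLK2 and PLK3, which act in centriole duplication and the stress response, both rose. PLK2 was at 85.0, 90.9 and 96.6 CPM and, after IR, at 156, 169.6 and 178 CPM. PLK3 was expressed lower, at 12.2, 13.6 and 12.3 CPM and then at 22.8, 24.1 and 26.1 CPM. The groups did not overlap for either kinase, with log2 fold changes of 0.88 ± 0.08 (SE, adjusted P = 1.69e-04) for PLK2 and 0.94 ± 0.09 (SE, adjusted P = 2.63e-04) for PLK3.

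TRAF4, an adaptor of receptor signalling, rose by 0.71 on the log2 scale and by 0.50 without IR replicate 3. PTP4A1, a phosphatase, had the smallest called change, 0.31, and shares exonic bases with another gene of the same strand, so that its reads may be split. The same holds for TRIM22 and SLC12A4. RAP2B, a small GTPase, was not called at 0.10. RGS12, which limits G protein signalling, was at 23.6, 23.7 and 24.2 CPM in untreated and at 21.6, 21.3 and 24.2 CPM in IR libraries. These groups overlapped (log2 fold change -0.09, 95% interval -0.27 to 0.09, edgeR adjusted P = 0.438). SYTL1, an effector of RAB27 in vesicle transport, was near the limit of detection, at 1.15, 1.25 and 1.08 CPM against 0.871, 1.09 and 2.01 CPM. Its interval, from -0.49 to 1.01, was too wide to place it on either side of 0 (edgeR adjusted P = 0.593).

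Of 10 ligands, receptors and membrane proteins, 6 were called higher. The ligands differed. KITLG, the ligand of the receptor KIT, was at 22.3, 22.7 and 22.3 CPM in untreated and at 41.0, 37.5 and 43.1 CPM in IR libraries, with no overlap and a log2 fold change of 0.86 ± 0.08 (SE, adjusted P = 2.39e-04). By transcript, a KITLG transcript annotated without a defined coding sequence was at 8.45, 2.26 and 7.13 CPM against 29.0, 18.1 and 21.3 CPM. The canonical KITLG transcript overlapped between the groups, at 16.0, 22.0 and 16.1 CPM against 16.3, 24.0 and 28.3 CPM. A change in transcript use was not called for KITLG. LIF, a cytokine of the interleukin-6 family, was at 93.6, 99.7 and 86.0 CPM and at 92.9, 101 and 99.1 CPM. The groups overlapped, and its log2 fold change of 0.07 had a 95% interval of -0.09 to 0.23 (edgeR adjusted P = 0.503). PGF, a growth factor of the VEGF family, was not called at 0.38, and TSKU, a secreted proteoglycan, rose by 0.70.

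Among the receptors and channels of the same group, ORAI3, a subunit of calcium channels of the plasma membrane, changed the most. It was at 6.31, 5.57 and 4.64 CPM in untreated and at 11.6, 13.3 and 11.4 CPM in IR libraries, and no libraries overlapped. Its log2 fold change was 1.14 ± 0.14 (SE, adjusted P = 7.43e-04). EDA2R, a receptor of the TNF family, rose by 0.70 and SUSD6 by 0.39. SLC12A4, a potassium-chloride cotransporter, was at 29.6 CPM in untreated replicate 1 and at 59.1 and 53 CPM in the other untreated libraries, with 74.3 to 91.7 CPM after IR. The log2 fold change of 0.77 ± 0.20 (SE, edgeR adjusted P = 0.0170) was 0.53 without untreated replicate 1. TLR3, a receptor of double-stranded RNA, and VWCE, a secreted protein, had 0.64 and 0.50 and were not called (edgeR adjusted P = 0.0554 and 0.0572).

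Of 7 metabolic and modifying enzymes, 4 were called higher. CMBL, a hydrolase, was at 20.9, 21.6 and 22.3 CPM in untreated and at 38.6, 37.1 and 41.0 CPM in IR libraries. The groups were narrow and did not overlap, with a log2 fold change of 0.85 ± 0.08 (SE, adjusted P = 2.20e-04). NTPCR, a nucleoside triphosphatase, rose by 0.63, CES2, a carboxylesterase, by 0.41, and PANK1, which starts coenzyme A synthesis, by 0.37. For NTPCR, transcripts annotated without a defined coding sequence rose, as from 9.61, 9.60 and 9.11 CPM to 20.4, 15.8 and 32.1 CPM. Another was at 12.1, 12.7 and 14.0 CPM against 20.2, 20.9 and 26.4 CPM. The canonical NTPCR transcript overlapped, at 10.8, 9.76 and 9.90 CPM against 11.3, 10.3 and 12.7 CPM. A change in transcript use was not called for NTPCR. The call of PANK1 was lost in 5 of the 6 fits that left out 1 library, with adjusted P up to 0.0811. ABHD4, a lipid hydrolase, was at 80.7, 77.9 and 65.5 CPM against 79.7, 87.1 and 76.9 CPM. The groups overlapped and the log2 fold change was 0.12 (95% interval -0.08 to 0.32, edgeR adjusted P = 0.330). ACER2, a ceramidase, at 0.53 and PADI4, which converts arginine to citrulline, at 0.89 were not called. Of the 13 genes not called, 7 had a mean below 5 CPM, as did none of the 30 called genes. The part of depth in the missing calls was not tested.

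The genes also differ in level. In TPM, the authors' unit that corrects for transcript length, the untreated mean was highest for RPS27L, at 402 ± 48.1 (SD, n = 3). PTP4A1 followed at 108 ± 3.03 and TP53I3 at 65.3 ± 2.58 TPM. Below them came PLK2 at 57.3 ± 3.65, NTPCR at 50.8 ± 4.02, FDXR at 44.4 ± 5.33, CASP6 at 40.5 ± 3.76 and TRIAP1 at 40.3 ± 1.37 TPM, and in this order the ranges of 1 SD of all neighbours overlapped. The median of the 43 tested genes was 13.5 TPM. After IR FDXR reached 111 ± 37.8 TPM, in the range of PTP4A1 at 127 ± 4.28 and TP53I3 at 107 ± 22.4 TPM.

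**Figure D3:**
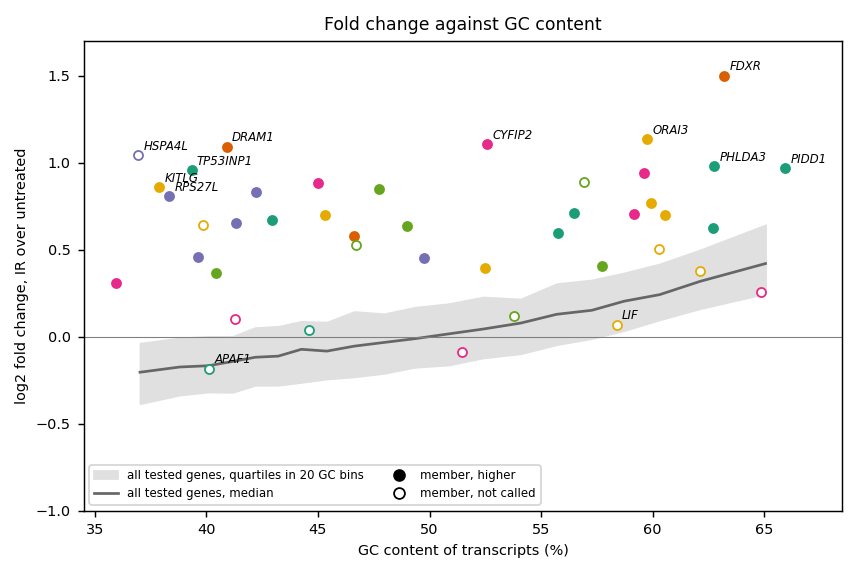
Log2 fold change (IR over untreated) against the GC content of the transcripts in percent, for the 43 tested target genes as points coloured by role (open, not called) and for all genes tested as the median and quartiles of 20 bins of GC content. The medians of all genes climb from -0.21 in the lowest to 0.42 in the highest bin, and most target genes lie above the band at any GC content.

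Fold changes moved with GC content in these libraries. Among all genes tested with a GC content below 49.8%, the median of the target genes, 6.19% were called higher and the median log2 fold change was -0.12. Among those at or above it, 26.4% were called higher and the median was 0.17. Of the target genes, 16 of 22 were called higher below and 14 of 21 at or above that GC content, with medians of 0.65 and 0.70. IR replicate 3, the deepest library, was the highest of the IR libraries for 28 of the 43 target genes, or 65.1%, and for 38.8% of all genes. For target genes of high GC content the share was 76.2%, and for those of low GC content 54.5%. Over all genes tested the shares were 57.7% and 22.5%, so that a difference by GC content was not particular to the target genes.

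When the trend with GC content was removed from each library, 31 of the 43 genes were called higher, while the share among all genes fell to 11.1%. Of the 30 genes called before, 27 remained. NINJ1 (0.29, edgeR adjusted P = 0.0709), SLC12A4 (0.51, 0.0713) and CES2 (0.22, 0.0570) lost the call, and RAP2B, TLR3, ACER2 and HSPA4L gained it. Of the kept calls, PIDD1 went from 0.97 to 0.52, PHLDA3 from 0.98 to 0.64, TSKU from 0.70 to 0.43 and PTP4A1 from 0.31 to 0.52, each by more than 1.5 times. With an offset for the effective length of transcripts, 23 genes were called higher, all of them among the 30, against 5.84% of all genes tested. The 7 lost calls were those of PTP4A1, SUSD6, SLC12A4, CES2, PANK1, TRIM22 and ANKRA2. TRIM22 fell by more than any other of these, from 0.83 to 0.26 (edgeR adjusted P = 0.425). Altogether 22 genes were called higher in every one of 16 alternative analyses, among them FDXR, DRAM1, TP53INP1, CYFIP2, ORAI3, PLK2, PLK3, KITLG, CMBL and RPS27L. Over all genes tested this share can be at most the 5.84% called higher with the length offset.

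**Figure D4:**
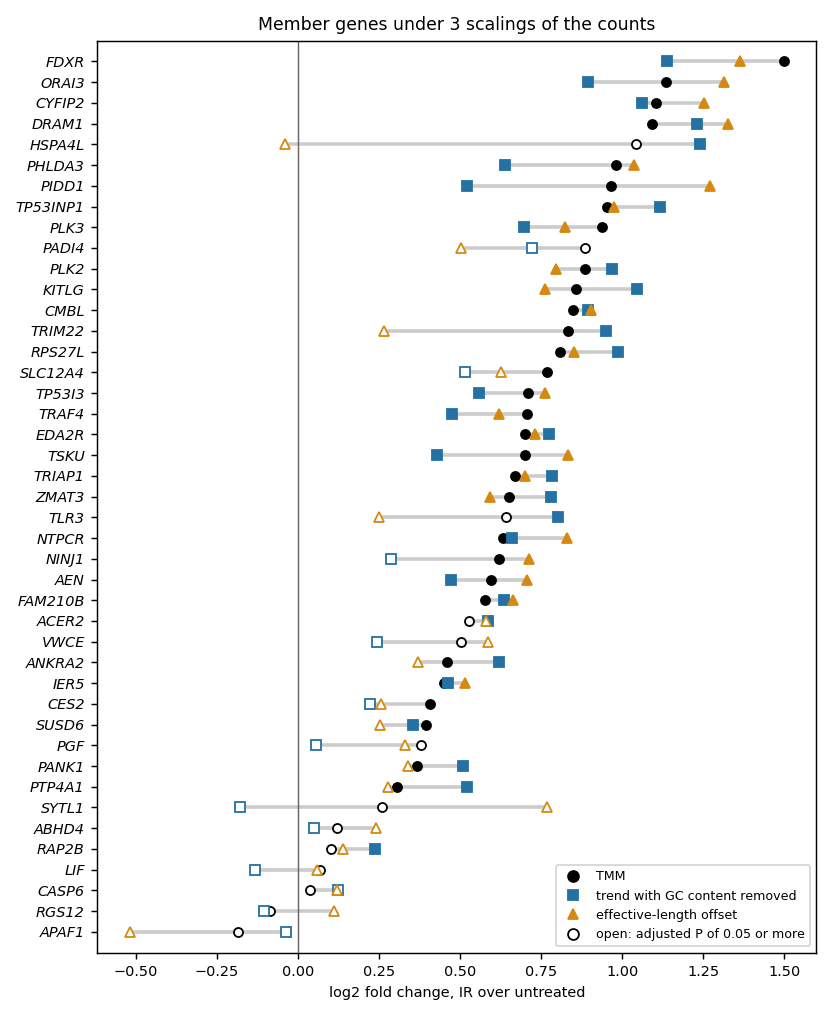
Log2 fold change (IR over untreated) of the target genes with TMM scaling (circles), with the trend with GC content removed (squares) and with an offset for effective length (triangles); open symbols have an adjusted P of 0.05 or more. FDXR goes from 1.50 to 1.14 and 1.36, DRAM1 from 1.09 to 1.23 and 1.33, and TRIM22 from 0.83 to 0.95 and 0.26.

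The rest of the pathway gives the background for these genes. Of 26 other p53 targets, 24 were tested, 19 were called higher and none lower, and their median was 0.51 on the log2 scale. None of the 24 was lower by DESeq2, which called 2095 of all 14323 genes lower. None of the 24 was lower at an unadjusted P under 0.05, for which the share over all genes is not given here. The 5 of lowest P were CDKN1A, an inhibitor of cyclin-dependent kinases, at 1.53, BBC3, a pro-apoptotic BH3-only protein, at 1.55, BTG2, an antiproliferative gene, at 1.17, SESN1, which restrains mTORC1, at 0.87, and DDB2, which recognizes ultraviolet damage, at 0.80. With TMM scaling FDXR thus had a log2 fold change close to those of CDKN1A and BBC3. It was 1.14 against 1.32 and 1.21 with the GC trend removed. With the length offset it was 1.36 against 1.72 and 1.62, and without IR replicate 3 it was 1.32 against 1.43 and 1.42. Of 12 regulators and relatives of p53, 3 were called higher, 2 were called lower (ATM at -0.37 and USP7 at -0.29) and 7 were not called, beside 15.5% higher and 14.5% lower among all genes tested. Neither was called lower with the length offset.

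MDM2 was at 135, 141 and 146 CPM in untreated and at 216, 215 and 209 CPM in IR libraries, without overlap, and rose by 0.60 ± 0.06 (SE, adjusted P = 2.91e-04). Its relative MDM4 was at 41.8, 40.8 and 48.4 CPM and at 43.6, 39.9 and 49.6 CPM, with a log2 fold change of 0.03 (95% interval -0.19 to 0.25, edgeR adjusted P = 0.848). PPM1D, a phosphatase that dampens the damage response, was at 114, 114 and 132 CPM and at 156, 157 and 128 CPM. IR replicate 3 lay inside the untreated range, and the call (0.29 ± 0.09 SE, edgeR adjusted P = 0.0407) was lost in 4 of the 6 fits that left out 1 library (adjusted P of 0.123 to 0.140), with the length offset (0.123) and with the replicate block (0.0840).

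Estimated counts were deposited per transcript, so that the use of transcripts within a gene was tested as well. Of 35 target genes with at least 2 transcripts kept, 1 was called, against 2.67% of 10666 genes. In TRAF4, with 8 transcripts, the protein-coding transcript ENST00000473421 was at 2.19, 1.89 and 1.47 CPM without IR and at 0 in each IR library (edgeR Simes adjusted P = 0.0162). The canonical transcript carried most of the counts, at 26.4, 28.0 and 23.4 CPM and at 37.5, 39.3 and 57.0 CPM, all higher after IR. The call was lost with a replicate block and without any 1 of the IR libraries (adjusted P of 0.0884, 0.148 and 0.149). Without IR replicate 1, APAF1 (adjusted P = 4.02e-04) and PLK2 (adjusted P = 0.035) were called instead. The next genes by P were not called. VWCE (adjusted P = 0.206, and called at 0.0238 with a stricter filter on transcripts) had a transcript annotated for nonsense-mediated decay at 0, 0 and 0.0566 CPM against 2.0, 3.36 and 2.16 CPM, and its canonical transcript at 2.39, 2.68 and 1.58 CPM against 0.856, 0 and 0.836 CPM. PIDD1 (adjusted P = 0.544) had 1 transcript at 0 to 0.315 CPM against 1.16 to 6.69 CPM.

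The libraries carried the markers of a mesenchymal line, with SPARC at 1954, VIM at 1170 and COL1A1 at 554 TPM in untreated cells, whereas COL1A2, at 0.413 TPM, and ALPL, at 0.826 TPM, were nearly absent. ALPL was called higher (1.09, edgeR adjusted P = 0.00716) and RUNX2, a transcription factor of bone, lower (-0.36, edgeR adjusted P = 0.0250). Of 6 epithelial markers, 5 were tested and 3 were called higher, among them KRT8 at 0.40 and KRT18 at 0.42, and their summed level was 313 to 315 CPM in untreated and 376 to 458 CPM in IR libraries. In untreated cells KRT8 was at 168 and KRT18 at 148 TPM, above the mesenchymal marker CDH2 at 101 TPM. The other epithelial markers were at 15.1 TPM or less, so that the lists do not separate cleanly. The part of these markers in the changes of the p53 targets was not tested. Some target genes share exons with a gene on the other strand, among them TP53INP1, TP53I3, APAF1, PIDD1, CASP6, ANKRA2, PLK3, CYFIP2 and NTPCR, and whether counting used the strand is not given in the sources used here, so that reads of such partners cannot be told apart.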

How the data were processed

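RNA of U-2 OS cells was sequenced by the authors from 3 samples labelled untreated and 3 labelled as irradiated. The labels name polyA RNA and an mRNA kit, the paper a total RNA kit. The authors used fastp to trim adaptors and kallisto (version not given in the sources used here) to assign reads to GENCODE transcripts of GRCh38. They deposited, per transcript, estimated counts that are not normalized, TPM values, lengths and effective lengths.

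Gene names came from GENCODE release 44, by transcript identifier. The 2460 transcripts without a match held 1.54% to 1.80% of the counts per library and were dropped. Counts were summed per gene, rounded, filtered by filterByExpr, scaled by TMM and tested with glmQLFit and glmQLFTest of edgeR 4.0.16 (limma 3.58.1, R 4.3.3), with Benjamini–Hochberg adjustment over all genes and a threshold of 0.05. A standard error is the size of the log2 fold change divided by the root of its F statistic. The exact permutation test cannot go below 0.1. Transcript usage was tested by diffSpliceDGE. The deposited TPM values were used for levels between genes and as weights for GC content and length. Effective length exceeded length for 24.2% to 29.1% of transcripts, so the length offset may also act on sequence bias. Counting error is smallest in IR replicate 3, but this library differed most from its group. A chi-square of the counts of 2 libraries, per gene, was 29.1 and 32.2 for it against IR replicates 1 and 2. It was 5.92 between those and 3.45 to 9.15 between untreated libraries. This measure also rises with depth, and the cause of the difference was not tested.

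Alternatives were other filters and scalings, DESeq2 1.42.0, the likelihood ratio test, removal of the GC trend (natural spline with 5 degrees of freedom), the length offset, a replicate block and leaving out each library. Values in every library are given for the 10 called genes of highest log2 fold change, the 5 called of lowest P, the gene of lowest P in each role, genes called lower and the 5 of highest P. Other values were chosen after they were seen. The genes and lists were chosen with earlier results of these data known. Some genes of the lists are not reported here. Scripts were tested on simulated counts.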

Additional observations from a re-analysis of the deposited data

How the results depend on the processing

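The count of target genes called higher was 30 in the main analysis and between 23 (effective-length offset) and 33 (at least 10 counts in every library) in the alternatives, 30 with a replicate block and 29 to 30 when 1 library was left out; none was called lower in any of them. Their median log2 fold change ranged from 0.58 (GC trend removed) to 0.69, and was 0.66 with the replicate block. Whether same-numbered libraries were handled together is not given in the sources used here. Correlations of their deviations were -0.03, 0.04 and -0.05, which with 3 libraries per group cannot decide it. Over all genes the length offset left 837 higher and 875 lower against 2227 and 2080, and leaving out 1 library gave 1295 to 2114 higher and 1244 to 2284 lower. Of the regulators called, 1 to 2 were higher and 1 to 2 lower when 1 library was left out, and 0 lower with the length offset. The call of PPM1D was lost with the replicate block, with the length offset and in 4 of the 6 fits that left out 1 library. For transcript usage the 1 call became 2 with a stricter filter, 0 with the replicate block and 0 to 2 when 1 library was left out. The share of target genes with the core pair was 15% when only the 250 bases before the start were read, against 4.92% of all genes. Among the target genes, MDM2, MDM4 and PPM1D, signs turned only for genes that were not called: RGS12 to 0.11 and MDM4 to -0.42 with the length offset, LIF to -0.13 with the GC trend removed, with and without the replicate block, and SYTL1 to -0.18, or -0.25 with the block. HSPA4L went to -0.04 with the length offset. When 1 library was left out, CASP6 ranged from -0.0015 to 0.0758, SYTL1 from -0.26 to 0.46 and MDM4 from -0.0741 to 0.11. The causes were not tested.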
